A study of Mus musculus with 56 samples.

Results

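The immunoglobulin transcripts described here are those seen by 8 spotted cDNA clones of the MUSV29K nylon microarray, among 7625 clones with a gene name. They are every spot whose gene entry is KACMOUSE or starts with Igh, Igk, Igl or Igj and is an antibody chain: 1 KACMOUSE clone, 1 Igl-V1 clone, 4 Igh-6 clones and 2 Igj clones. KACMOUSE is the database entry name of the immunoglobulin kappa constant region, the light chain of most mouse antibodies. Igl-V1 (now Iglv1) is a variable segment of the lambda light chain, the other light chain type. Igh-6 (now Ighm) is the constant region of the mu heavy chain, which makes IgM and the membrane antigen receptor of B cells, and Igj (now Jchain) is the joining chain that links IgM and IgA into polymers. KACMOUSE was chosen by its high measured level in the early OA mice, so its values over time are described and not tested, while the other 7 clones were taken by name alone. Clones of 1 gene are told apart by spot number, as in Igh-6 (400).

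Expression was measured in whole lung of 27 mice injected with oleic acid (OA), a fatty acid that injures the lung when given in the blood, and of 8 mice injected with physiological serum by the same tail vein route. All were female C57BL/6J mice of 7 weeks, anesthetized for the injection. Lungs were taken 1, 1.5, 3, 4, 18 or 24 hours after injection, from 4, 6, 7, 4, 3 and 3 OA mice in this order (50 microarrays) and from 2, 1, 2, 0, 2 and 1 serum mice (9 microarrays). The early stage (1 and 1.5 hours) held 10 OA mice, the intermediate stage (3 and 4 hours) 11 and the late stage (18 and 24 hours) 6. Uninjected mice were not analysed here, and the number after the L in a mouse's name (L1, L2 or L3), which the labels do not explain, follows time: all 10 early mice are L2 or L3 and all 6 late mice are L1. Serum microarrays were dimmer, with a median spot intensity of 5.73 to 8.39 on the log2 scale against 6.75 to 9.36 for OA microarrays.

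Antibodies are built from paired heavy and light chains, and their genes are transcribed in B cells and, at very high rates, in antibody-secreting plasma cells. The light chain is kappa or lambda in any 1 cell, the mu chain is the first heavy chain a B cell makes, and the J chain belongs to cells that secrete polymeric antibody. In whole lung such transcripts come from B lineage cells in the tissue and in the blood it holds. A lower signal in whole lung can come from fewer such cells or from less RNA per cell, and these cannot be told apart.

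The 8 clones covered a wide range of brightness. On the log2 scale of the authors' table, averaged over OA mice, KACMOUSE (10.80) and Igh-6 (1275) (10.68) were brighter than 92.5% and 91.7% of clones. KACMOUSE passed the background level, the 95th percentile of spots with no clone name on the same microarray, on 50 of 50 OA and 9 of 9 serum microarrays. Igh-6 (1275) passed it on 47 of 50 and 9 of 9, and Igh-6 (400) on 36 of 50 and 8 of 9. Both remaining Igh-6 clones were weaker, with (6179) above background on 19 OA microarrays and (9298) on 7. Igj (6129) passed on 4 OA microarrays and 1 serum microarray. Igl-V1 and Igj (7269) passed on none, and their values are those of dim spots throughout. Levels of different clones depend on the clone as well as on the transcript, so clones are compared below by how they moved and not by level.

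The kappa light chain had its highest values early. KACMOUSE read 10.76, 10.88, 11.41 and 11.63 in the 4 mice at 1 hour, and ran from 10.36 through a median of 11.79 to 12.71 in the 6 mice at 1.5 hours. At 3 hours the 7 mice ran from 9.71 through 10.21 to 11.43, and at 4 hours the 4 mice read 9.53, 10.20, 10.73 and 12.29. In the 3 mice at 18 hours it was 10.06, 10.21 and 10.32, and in the 3 at 24 hours 10.37, 10.62 and 10.67. Early and intermediate mice thus overlapped widely, and the intermediate mouse P12L3 at 4 hours read higher than 9 of the 10 early mice. Stage means were 11.44 ± 0.71 (SD, n = 10), 10.45 ± 0.80 (n = 11) and 10.38 ± 0.24 (n = 6), a 1.98-fold difference between early and intermediate. Late mice were less spread than mice of the other stages.

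**Figure D1:**
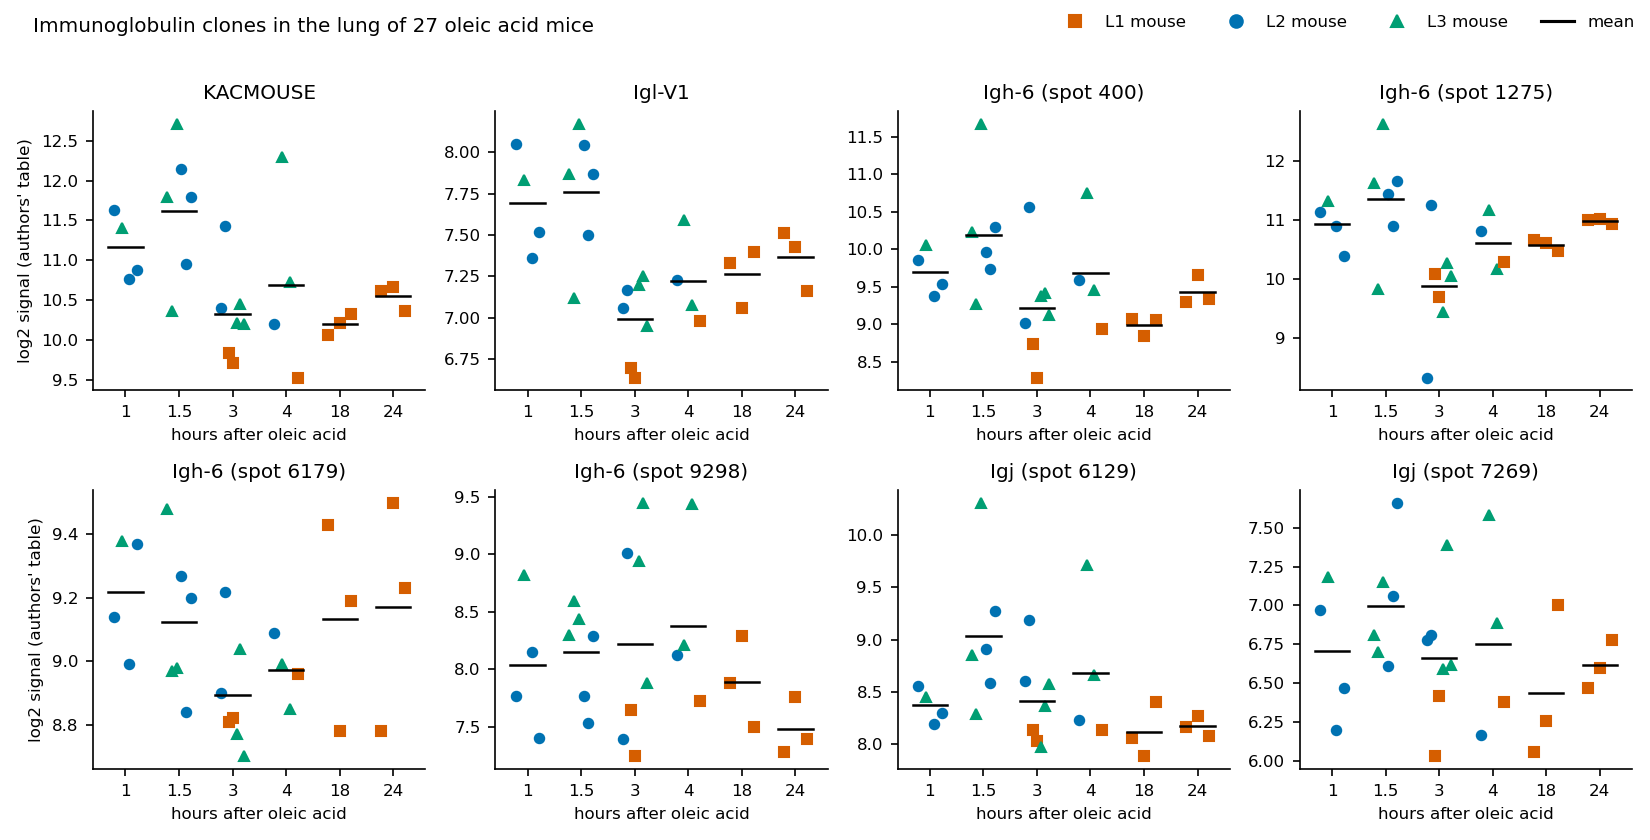
Log2 signal of the 8 immunoglobulin clones (1 panel per clone, each with its own vertical axis) in each of the 27 OA mice against hours after injection, with symbols for the L number of the mouse and a line at the mean of each time point. In 6 panels, those of Igh-6 (6179) and Igh-6 (9298) excepted, the highest mean stands at 1.5 hours, and in KACMOUSE single mice at 1.5 and 4 hours reach above 12.

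The lambda light chain clone was highest early and lowest in the intermediate stage. Igl-V1 ran from 7.12 through a median of 7.85 to 8.17 in the early mice, from 6.64 through 7.08 to 7.59 in the intermediate mice and from 7.06 through 7.37 to 7.51 in the late mice. Its early mean was 0.66 (SE 0.12) above the intermediate mean on the log2 scale, 1.58-fold, with an adjusted p of 0.00163 in limma. It was the 1 clone of the 7 tested that differed across the 3 stages (limma F test, adjusted p = 0.00334), where 6.16% of all clones differed, and the 1 that rose early against intermediate, where 1.15% of all clones did. It was also the 1 of 7 that passed over the 6 time points (adjusted p = 0.0403), against 2.01% of all clones, but leaving out any 1 of 18 of the 27 mice ended that call (adjusted p up to 0.0796). The call over stages stood in every such leave-out, with an adjusted p of at most 0.00886. Late mice lay 0.42 below early mice (adjusted p = 0.0934), where 1.11% of all clones were lower, and the call over time points was also lost with the L number as a block (adjusted p = 0.0936).

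The 4 mu heavy chain clones did not move alike. Igh-6 (1275) ran from 9.84 through 11.24 to 12.63 in early, from 8.34 through 10.18 to 11.26 in intermediate and from 10.48 through 10.80 to 11.02 in late mice. Its early mean lay 1.04 (SE 0.29) above the intermediate one, a 2.06-fold difference as wide as that of KACMOUSE, and its adjusted p of 0.05 after rounding did not pass in limma (0.063 over the 3 stages). Its late mean was nearer to the early one, 0.40 below it. Igh-6 (400) ran from 9.27 through 9.91 to 11.67, from 8.29 through 9.38 to 10.75 and from 8.84 through 9.18 to 9.66, and early minus intermediate was 0.61 (adjusted p = 0.21). Igh-6 (6179) differed by 0.24 (adjusted p = 0.168) and Igh-6 (9298) by -0.17 (adjusted p = 0.779), and none of the 4 was called over stages or time points.

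One microarray weighs on Igh-6 (1275). The 2 microarrays of the 3 hours mouse P15L2 gave it 6.22 and 10.46, a gap of 4.24 where the median gap between microarrays of 1 mouse was 0.38. Without the lower microarray the early minus intermediate difference was 0.85 and the adjusted p over stages was 0.0811. For KACMOUSE the median gap between microarrays of 1 mouse was 0.27 over the 23 mice hybridized more than once, against an SD of 0.70 between mice of 1 time point. Igl-V1 had a gap of 0.18 against an SD of 0.29, Igh-6 (400) 0.23 against 0.64 and Igj (6129) 0.16 against 0.51. In Igj (7269) the gap, 0.75, was larger than the SD between mice, 0.44.

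The J chain did not pass the test over stages with either clone. Igj (6129) ran from 8.19 through 8.57 to 10.31 in early, from 7.97 through 8.36 to 9.71 in intermediate and from 7.88 through 8.12 to 8.40 in late mice (adjusted p = 0.233), with its mean highest at 1.5 hours (9.03 ± 0.71, n = 6) and 8.37 ± 0.16 (n = 4) at 1 hour. Igj (7269) gave stage means of 6.88 ± 0.42, 6.70 ± 0.47 and 6.53 ± 0.34 (adjusted p = 0.47). Over the 7 clones other than KACMOUSE, the median early minus intermediate difference was 0.26 and the median late minus early difference -0.42, where both medians over all clones were 0.00.

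Because the L number follows time, the stages were also compared within it. Among L2 mice KACMOUSE averaged 11.36 in 6 early mice and 10.68 in 3 intermediate mice, and among L3 mice 11.57 in 4 early and 10.78 in 5 intermediate mice, differences of 0.68 and 0.79 against 0.99 in all mice. Igl-V1 differed by 0.57 and 0.54, and Igh-6 (1275) by 0.93 and 1.13. The 0.93 rests in part on P15L2, which read 8.34 as the mean of 6.22 and 10.46 on its 2 microarrays. The other L2 intermediate mice read 10.82 and 11.26, against 10.39 to 11.67 in the 6 early L2 mice. Igh-6 (400) differed by 0.68 among L3 mice and by 0.06 among L2 mice, and single mice weigh on both values. Among early L3 mice P5L3 read 11.67 and the rest 9.27 to 10.23, and P12L3 was the highest intermediate L3 mouse at 10.75. Among intermediate L2 mice P16L2 read 10.56 and the rest 9.02 and 9.59. Whether L2 and L3 mice differ in this clone was therefore not settled. Only L1 holds both intermediate and late mice, and there KACMOUSE was lower in the intermediate mice, at 9.53 to 9.84 in 3 mice against 10.06 to 10.67 in 6 late mice. Intermediate minus late in L1 was -0.68 for KACMOUSE, -0.54 for Igl-V1, -0.56 for Igh-6 (400) and -0.77 for Igh-6 (1275), and it was below 0 in all 8 clones. No early mouse is L1, and late minus early, -1.07 for KACMOUSE over all mice, was -0.06 in the fit with the L number as a block. With no L number holding both stages, that value rests on a link through the intermediate mice.

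The serum mice show what the same clones read without OA. For this comparison OA and serum microarrays were quantile-normalized together from the deposited intensities, a scale whose values are not those of the authors' table. KACMOUSE read 8.97 and 10.30 in the serum mice of 1 hour and 11.21 in the mouse of 1.5 hours. It read 10.29 and 10.95 in those of 3 hours, 10.63 and 10.90 in those of 18 hours and 11.01 in the mouse of 24 hours, all within the span of the OA mice (9.41 through 10.52 to 12.69) but for the lowest. Averaged over the 5 shared times, OA minus serum was 0.03 (SE 0.29), given with no test because the early OA values that chose the clone enter it. From the first to the last of these times it was 1.45, 0.35, -0.41, -0.67 and -0.56, and early minus late of OA minus serum was 1.52 (SE 0.67), again as a description. The 4 OA mice at 1 hour read 10.66 to 11.57 on this scale, and the lower serum mouse of that time is the lowest of the 35 mice.

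**Figure D2:**
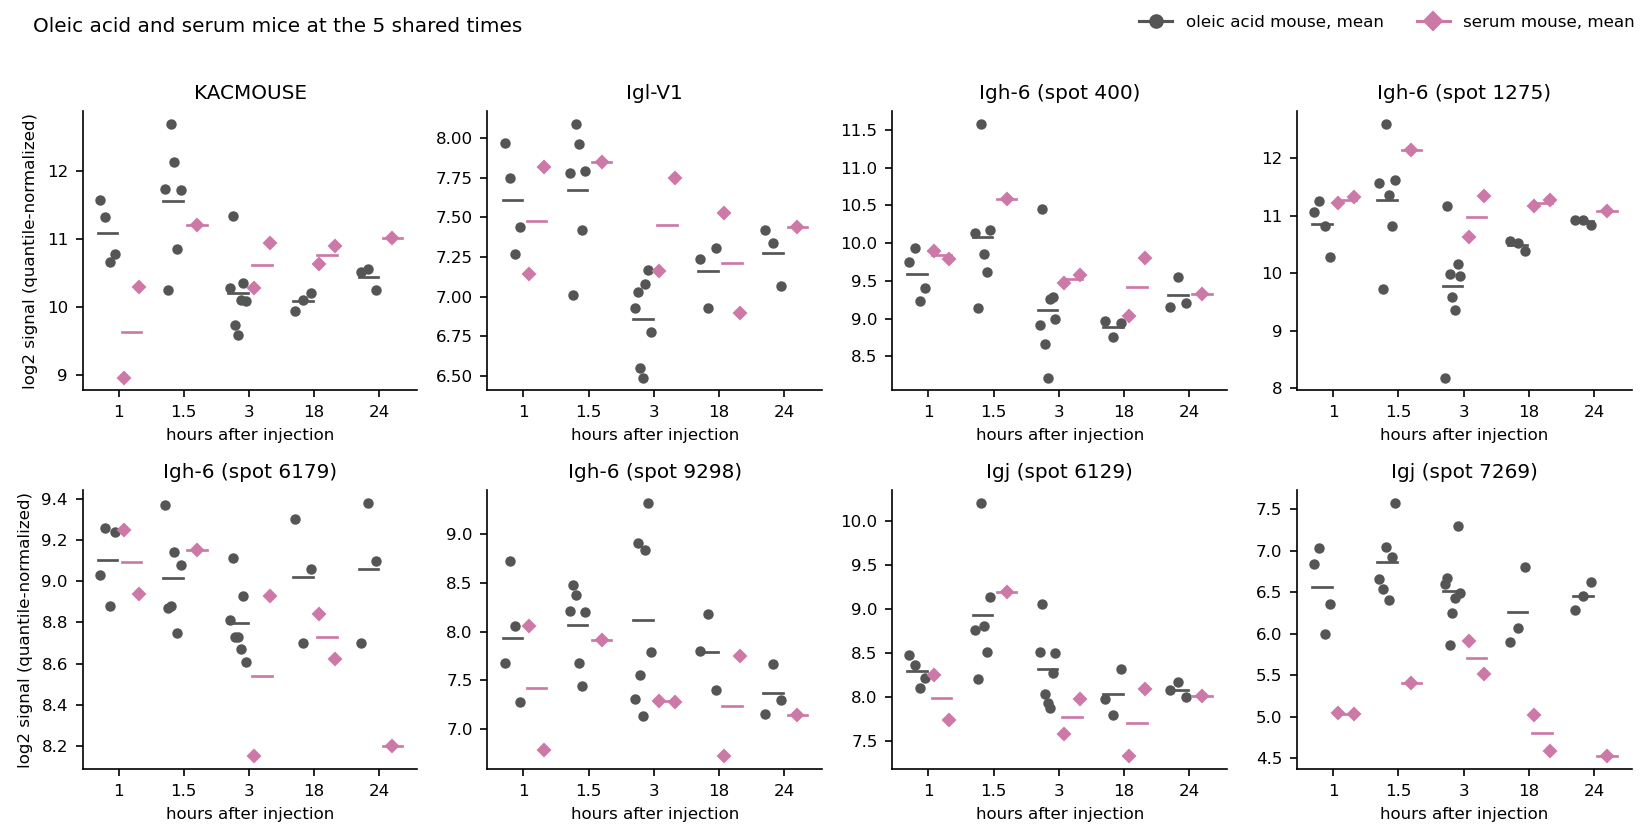
Log2 signal of the 8 clones in OA mice (grey circles) and serum mice (pink diamonds) at the 5 shared times, quantile-normalized together, each point 1 mouse and each line a group mean, with 1 serum mouse at 1.5 and at 24 hours. Serum mice of Igj (7269) sit below the OA means at all 5 times, and in KACMOUSE, Igl-V1, Igh-6 (400), Igh-6 (1275) and Igj (6129) the serum mouse at 1.5 hours is the highest of the 8.

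For several clones the highest value fell at the same time in both treatments. In KACMOUSE, Igl-V1, Igh-6 (400), Igh-6 (1275) and Igj (6129), both the OA mean and the serum value were highest at 1.5 hours. KACMOUSE was chosen for its early OA level. Of the 7 other immunoglobulin clones 4 had this order, as did 6.22% of all clones, and the clones of 1 microarray are not independent. In the serum mouse at 1.5 hours Igh-6 (1275) read 12.13, against 10.62 to 11.34 in the 7 other serum mice. In the same mouse Igl-V1 read 7.85, Igh-6 (400) 10.58 and Igj (6129) 9.20. That time holds 1 serum mouse, so the serum course has no spread there. None of the 7 clones other than KACMOUSE passed a test of early minus late of OA minus serum, where 2 of all clones, 0.0262%, were higher and 0 lower (629 at an unadjusted p under 0.05). For Igl-V1 this difference was 0.09 (SE 0.31), and the largest departure of the 7 was -0.64 in Igh-6 (6179) (p = 0.0108 unadjusted, adjusted p = 0.408 in limma).

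Averaged over the 5 times, 2 of the 7 clones other than KACMOUSE were higher in OA than in serum mice and 1 was lower, where 34.3% of all clones were higher and 27.3% lower, so calls of this kind are common on these microarrays. Igj (7269), the dimmest, was higher by 1.44 (95% interval 1.07 to 1.81, adjusted p = 1e-07 in limma), 2.71-fold. The serum mice read 5.04 and 5.03 (1 hour), 5.40 (1.5 hours), 5.91 and 5.51 (3 hours), 5.02 and 4.59 (18 hours) and 4.52 (24 hours), and the OA mice ran from 5.87 through 6.54 to 7.58. The groups overlapped in 2 OA mice, P2L1 at 3 hours (5.87) and P10L1 at 18 hours (5.90), which lay below the highest serum mouse. It was called higher at 1, 1.5, 18 and 24 hours (differences of 1.52, 1.47, 1.45 and 1.94, with 16.6%, 9.46%, 16.4% and 14.5% of all clones higher) and not at 3 hours (0.81, adjusted p = 0.0558, with 23.7% of all clones higher). This clone was at no time above background and the serum microarrays were dimmer. Among the 3128 clones never above background the median OA minus serum difference was 0.04, with 1094 higher and 906 lower. The other J chain clone, Igj (6129), differed by 0.19 (95% interval -0.21 to 0.60, adjusted p = 0.41), so the clones of this gene disagree.

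The mu clones disagreed as well. Igh-6 (1275) was lower in OA mice, with a difference of -0.68 (95% interval -1.24 to -0.12, adjusted p = 0.0333, 1.60-fold), with OA mice from 8.19 through 10.71 to 12.59 and serum mice from 10.62 through 11.24 to 12.13. Igh-6 (6179) was higher by 0.26 (95% interval 0.05 to 0.46, adjusted p = 0.0305), with the median at 8.88 in both groups. Of the single times it was called at 24 hours alone, by 0.86 (adjusted p = 0.0206), against 1 serum mouse. Igh-6 (400) differed by -0.34 (adjusted p = 0.229), Igh-6 (9298) by 0.46 (0.132) and Igl-V1 by -0.17 (0.275). Both mu calls were lost when single mice were left out, that of (1275) without any 1 of 3 serum mice and that of (6179) without any 1 of 3 serum mice or of the late OA mice P10L1 and P7L1. In all 8 clones the ranges of OA and serum mice overlapped. Over all clones 7.62% had every OA mouse above every serum mouse and 5.08% every OA mouse below.

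Beneath these means, mice of 1 time point differed from each other, and the immunoglobulin clones deviated together. The deviation of each mouse from the mean of its time point was not used to choose KACMOUSE, and was compared between clones over the 27 OA mice, with values permuted within time points. Pearson's r with KACMOUSE was 0.89 for Igj (6129), 0.89 for Igh-6 (400) and 0.83 for Igl-V1, with Spearman's rho of 0.80, 0.76 and 0.88. For each of these the two-sided permutation p for r was 1e-05, the smallest that the resamples can give, and 2.33e-05 after Benjamini-Hochberg adjustment over the 7 relations computed. Igh-6 (1275) followed at r = 0.66 and rho = 0.66 (permutation p = 0.00132, adjusted 0.00231), and Igj (7269) at r = 0.58 and rho = 0.64 (permutation p = 0.00941, adjusted 0.0132). Igh-6 (6179) and Igh-6 (9298) gave r = 0.26 and 0.28, with rho = 0.38 in both, and did not pass (permutation p = 0.131 and 0.22). Lambda, mu and J chain thus each had at least 1 clone whose signal followed that of KACMOUSE between mice killed at the same time. Of these clones Igl-V1 was above background on 0 of 50 OA microarrays and Igj (6129) on 4.

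**Figure D3:**
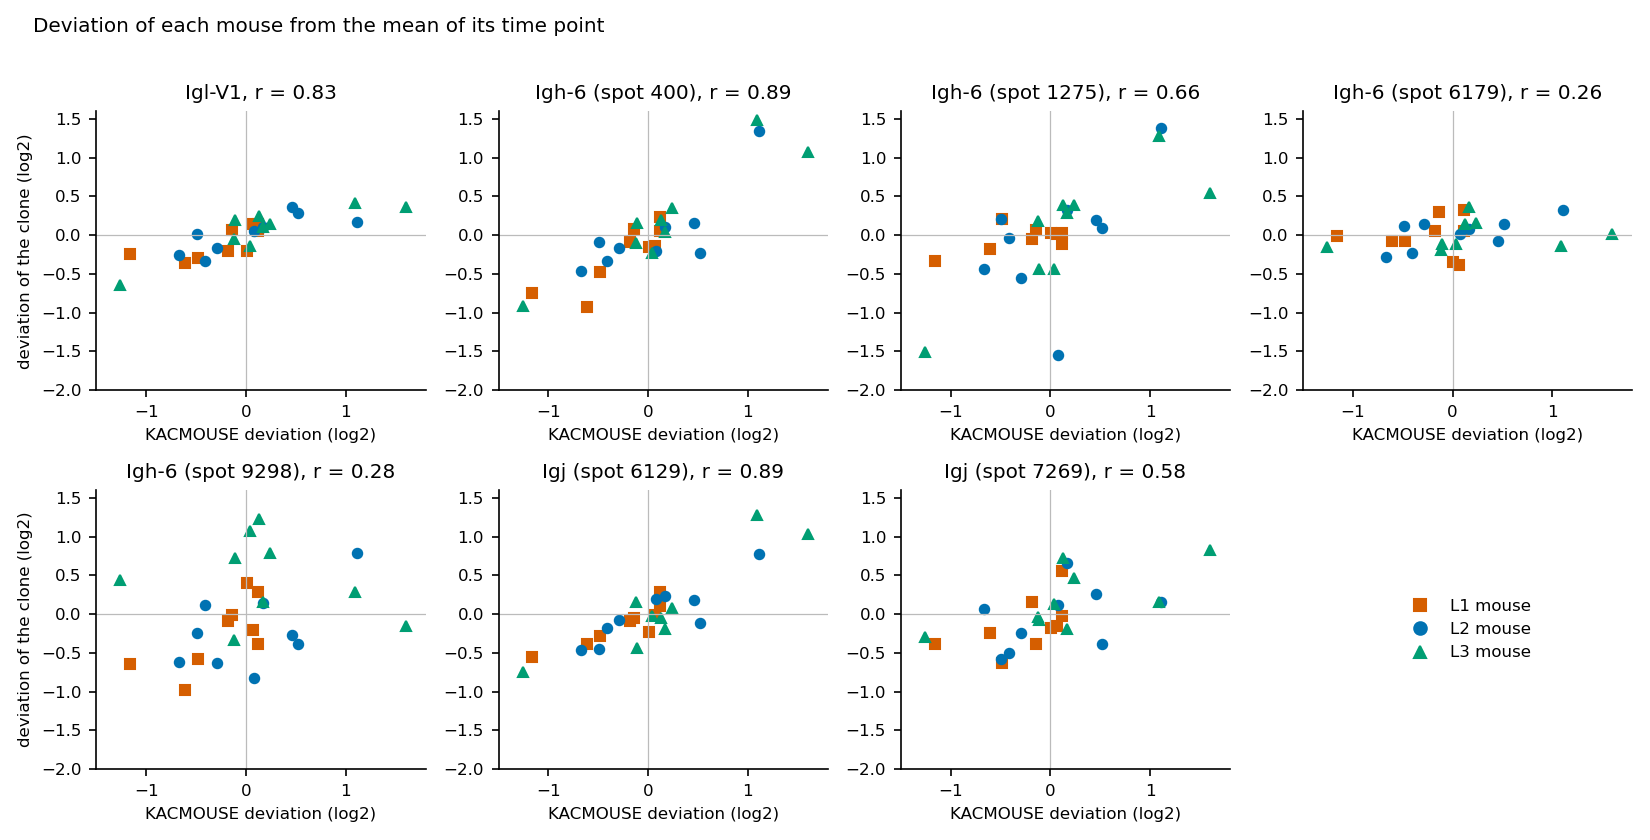
Deviation of each of the 27 OA mice from the mean of its time point (log2) for 7 immunoglobulin clones (vertical) against that of KACMOUSE (horizontal), with symbols for the L number. Points of Igj (6129), Igh-6 (400) and Igl-V1 lie along a rising line (r = 0.89, 0.89 and 0.83), while those of Igh-6 (6179) and Igh-6 (9298) scatter (r = 0.26 and 0.28).

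No clone of another kind followed KACMOUSE as closely as the best 3 immunoglobulin clones did. Of the 7617 clones that are not immunoglobulin chains, 0 had a within-time r as high as that of Igj (6129), Igh-6 (400) or Igl-V1, 9 reached that of Igh-6 (1275) and 40 that of Igj (7269). The median over these other clones was 0.00, with 50.7% above 0. By contrast 1370 and 1213 other clones reached the r of Igh-6 (6179) and Igh-6 (9298), 18.0% and 15.9%. The clones beside KACMOUSE were also related to each other, with r = 0.88 between Igh-6 (400) and Igj (6129) and 0.75 between Igh-6 (400) and Igh-6 (1275).

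Single mice show the pattern. P12L3 at 4 hours deviated upward by 1.60 in KACMOUSE, by 1.07 in Igh-6 (400), 1.03 in Igj (6129) and 0.37 in Igl-V1, and was the highest of its 4 mice in 6 of the 8 clones. P5L3 at 1.5 hours was up by 1.09 in KACMOUSE, 1.48 in Igh-6 (400), 1.28 in Igh-6 (1275) and 1.28 in Igj (6129). P16L2 at 3 hours was up by 1.11, 1.34, 1.38 and 0.78 in the same clones. These 3 mice were high across light, heavy and J chains at 3 different times. P4L3 at 1.5 hours went the other way, with -1.26 in KACMOUSE, -0.92 in Igh-6 (400), -1.51 in Igh-6 (1275) and -0.75 in Igj (6129), so the highest and the lowest KACMOUSE value of 1.5 hours both came from L3 mice.

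Without P12L3 and P4L3, the mice farthest out in KACMOUSE, r was 0.85 for Igh-6 (400), 0.82 for Igj (6129), 0.76 for Igl-V1, 0.56 for Igh-6 (1275) and 0.40 for Igj (7269), the last no longer passing (adjusted permutation p = 0.101). Igh-6 (9298) went from r = 0.28 to 0.58 without them and then passed (adjusted permutation p = 0.0185). With deviations taken within both time and L number, in 24 mice, r was 0.90 for Igh-6 (400), 0.87 for Igj (6129), 0.90 for Igl-V1 and 0.84 for Igh-6 (1275), while Igj (7269) at 0.41 and Igh-6 (9298) at 0.01 did not pass. Within the L numbers the relation was strong in L2 and L3 mice and weaker in L1 mice: Igh-6 (400) gave r = 0.78 and 0.97 in L2 and L3 against 0.41 in L1, and Igj (6129) 0.83 and 0.91 against 0.59, with 8 mice each. All late mice are among these L1 mice, and their KACMOUSE deviations ran only from -0.18 to 0.12. The median gap between microarrays of 1 mouse was 0.27, so late mice say little on the relation. Clones of 1 microarray share its hybridization, so KACMOUSE was also read from 1 microarray of a mouse and the other clone from the mouse's other microarray, in 23 mice. This gave r = 0.90 and 0.77 (both ways round) for Igh-6 (400), 0.88 and 0.82 for Igj (6129) and 0.69 and 0.72 for Igl-V1. Igh-6 (1275), at 0.52 and 0.31, passed neither way (adjusted permutation p = 0.0833 and 0.179). Its second value includes the low microarray of P15L2. With that microarray left out, mouse means of Igh-6 (1275) and KACMOUSE gave r = 0.79 and rho = 0.80 (adjusted permutation p for r = 7.00e-05). Igj (7269), at 0.47 and 0.73 across microarrays, passed the second way alone (0.139 and 0.00973). The deviation of KACMOUSE had r = -0.16 with that of the median intensity of the mouse's microarrays.

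The clones whose whole course over the 27 OA mice was most like that of KACMOUSE were, by Pearson's r and in order, Igh-6 (400) (0.91), Igl-V1 (0.86), Igj (6129) (0.85) and Pou2af1 (0.82), a coactivator of octamer-binding factors in B cells. Here early and late means enter as well, and r is a description of likeness. The next clones that are not immunoglobulin chains were Ogt (0.76), an enzyme that adds N-acetylglucosamine to proteins, Zfp318 (0.76), which controls the splicing choice between IgM and IgD in mature B cells, Twist1 (0.74), a transcription factor, and Ccdc39 (0.73), a protein of motile cilia. With time removed their r was 0.71 for Pou2af1, 0.68 for Ogt, 0.76 for Zfp318, 0.65 for Twist1 and 0.68 for Ccdc39. Igh-6 (1275) ranked 8 of 7624, Igj (7269) 58, Igh-6 (6179) 1078 and Igh-6 (9298) 1912. The median r over the clones that are not immunoglobulin chains was 0.01.

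Some clones of a list of genes expressed in B cells, not all of them in B cells alone, were higher in early than in intermediate mice. Of 28 listed B cell genes 19 were measured, by 32 clones, and 13 of these clones were called higher early than intermediate and 0 lower, where 1.15% of all clones were higher and 1.48% lower. None of the 32 was called late against early, where 1.69% of all clones were higher and 1.11% lower. The L number follows stage here too, and the B cell clones are not given within it or against serum by stage. Over all clones, 470 were called over the 3 stages in the main fit and 118 with the L number as a block. Ms4a1 (2703), which encodes the surface protein CD20, read 8.18 ± 0.43, 7.10 ± 0.35 and 7.82 ± 0.20 in early, intermediate and late mice, a difference early minus intermediate of 1.08 (adjusted p = 7.17e-05 in limma). Cd79b (6132), a signalling chain of the B cell antigen receptor, rose by 0.59 (adjusted p = 0.0234), Cd22 by 0.30 (0.0371), Cd37 by 0.40 (0.00475), Ly6d (4600) by 0.53 (1.71e-04), Pou2af1 (6610) by 0.41 (0.0187) and Ptprc by 0.52 (0.0191). These clones were named because they were called, and Cd22, Pou2af1 (6610) and Ptprc were above background on 0 of 50 OA microarrays. Ms4a1 (2703) passed background on 1, Cd79b (6132) on 7, Cd37 on 18 and Ly6d (4600) on 27. No change was called in the brightest members of the list: the 4 clones of Cd74, the invariant chain of antigen presentation, above background on 50 of 50 OA microarrays, differed by -0.01, 0.13, -0.02 and 0.02 (adjusted p of 0.582 to 0.968). Cd79b (7270) at 0.59 (0.0718), Lyn (1564), a kinase of the receptor, at -0.32 (0.187) and Pou2af1 (9912) at -0.04 (0.924) were not called either. The mean of the 32 clones ran from 8.24 to 8.59 in early, 8.01 to 8.38 in intermediate and 8.25 to 8.42 in late mice.

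With time removed, the mean of the B cell clones had r = 0.64 with KACMOUSE over the 27 mice, and 27 of the 32 clones had an r above 0, with a median of 0.29. Ms4a1 (2703) stood at 0.66, Cd37 at 0.56 and Cd79b (6132) at 0.53, all under the r of Igh-6 (400), Igl-V1 and Igj (6129). Not all clones of a gene took part: Ms4a1 (7428) had r = -0.23 and read 0.29 lower early than intermediate (adjusted p = 0.343), and Cd22 had r = 0.10. Of the 32 clones 19 were above background on no microarray. What part B cell number or blood content had in the immunoglobulin values was not tested.

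**Figure D4:**
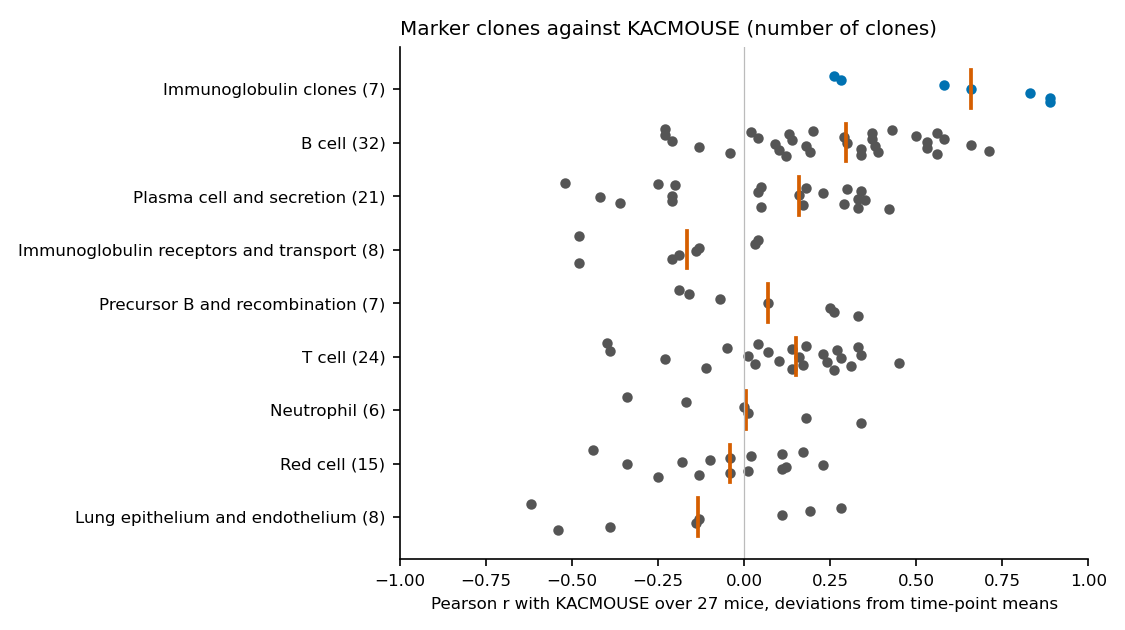
Pearson's r with KACMOUSE over the 27 OA mice, with time-point means removed, for each clone (points) of the immunoglobulin set and of 8 marker lists, with the number of clones in brackets and the median as a vertical bar. Immunoglobulin clones reach furthest right, and the B cell and T cell lists are shifted above 0, with medians of 0.29 and 0.15. The red cell and neutrophil lists centre near 0.

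Genes of antibody secretion showed no called change over the stages. Of 24 listed genes of plasma cells and the secretory pathway 13 were measured, by 21 clones, and 0 were called over the 3 stages (6.16% of all clones). Xbp1, the transcription factor of secretory cells, read 10.98, 11.09 and 10.89 in the stages, and Sdc1, the plasma cell surface protein syndecan 1, 9.57, 9.68 and 9.82 with its brighter clone. Irf4, a transcription factor of plasma cell formation, was at 6.90, 6.99 and 6.99 and above background on no OA microarray, and Derl3, of endoplasmic reticulum quality control, was at 8.65, 8.59 and 8.54. The mean of the list had r = 0.10 with KACMOUSE with time removed, and the median over its clones was 0.16. Against serum 7 of the 21 clones were higher in OA mice and 4 lower, where 34.3% and 27.3% of all clones were, with clones of 1 gene on both sides: the chaperone Hspa5 was 0.88 higher with (1546) and 0.65 lower with (1991), and Sdc1 (8119) was 0.94 lower (adjusted p = 4.54e-09).

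Receptors that bind or carry antibody were measured for 5 of 8 listed genes, by 8 clones. Of these clones 1 was called over the stages, where 6.16% of all clones were. The list mean had r = -0.35 with KACMOUSE with time removed. Fcgr1, the high-affinity IgG receptor of myeloid cells, was higher in OA than in serum mice with all 3 of its clones, by 1.09 (adjusted p = 2.03e-07), 0.57 and 0.47. The first of these was above background on 37 of 50 OA microarrays and the others on 0. Against serum 34.3% of all clones were called higher and 27.3% lower. Fcgrt, the receptor that recycles IgG, was 0.49 lower (adjusted p = 2.85e-05) and Fcgr3, a low-affinity IgG receptor, 0.37 lower (adjusted p = 0.00482). Of the precursor B cell and recombination genes 5 of 10 were measured, by 7 clones, none above background on any microarray and 0 called over the stages.

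Markers of other cell types gave an r with KACMOUSE nearer to 0 or below it. Of 24 T cell clones (16 of 18 genes) 3 were called over the stages, where 6.16% of all clones were. Among the 24, 1 was called higher early than intermediate (1.15% of all clones). The list mean had r = 0.18 with KACMOUSE with time removed, and 19 of the 24 clones had an r above 0, with a median of 0.15. An r above 0 in most clones was thus not particular to the B cell list. Of 6 neutrophil clones (6 of 12 genes) 1, S100a8, was called over the stages, at 12.00 ± 1.01, 11.92 ± 0.61 and 10.49 ± 0.62, and the list mean had r = -0.06. The 15 red cell clones (4 of 8 genes), the haemoglobins among them, had 0 calls over the stages and a list mean between 13.16 and 13.39 in all OA mice, with r = -0.05. Of the 8 clones of lung epithelium and endothelium (7 of 13 genes) 2 were called over the stages. This list mean had r = -0.26. The surfactant protein Sftpd, at 13.44, 13.58 and 13.53 in the stages, was above background on 50 of 50 OA microarrays. The B cell list was also the 1 of these lists with more than 1 clone called higher early than intermediate. Between OA and serum mice 10 of the 32 B cell clones were higher and 10 lower in limma, near the shares over all clones (34.3% and 27.3%). Among them Cd79b (6132) was 1.10 lower (adjusted p = 7.91e-07). Blr1 (now Cxcr5) was 1.00 higher (adjusted p = 3.55e-08) and Ms4a1 (6451) 0.84 higher (adjusted p = 2.28e-07).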

How the data were processed

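RNA of whole mouse lung, extracted with TRIzol, was labelled with 33P and hybridized to nylon microarrays, 1 sample on each. The authors quantified 9984 spots per microarray with Bzscan2 and deposited them as intensity on a linear scale, not normalized between microarrays. The authors also deposited a log2 table, quantile-normalized by them, with a column per OA microarray and 5 serum columns of unstated make-up. Local background correction is named in the study's methods, and whether the deposited intensity includes it is not stated. The number of microarrays limits the precision.

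For the OA time course the authors' log2 columns were averaged per mouse. For OA against serum, the intensity of the image signal at constant diameter was floored at 1, log2-transformed, quantile-normalized over 60 microarrays and averaged per mouse, with 1 group per treatment and time point. Tests were moderated F tests and contrasts of limma 3.58.1 in R 4.3.3, with Benjamini-Hochberg adjustment over 7625 named clones at 5%. Correlations used 100000 permutations within time points (numpy 2.4.6, scipy 1.17.1). The fits were tested on simulated data, with 100 clones shifted by 1 on the log2 scale. Of these 93 were recovered over 6 times, 97 over 3 stages, 97 for OA against serum and 73 for early minus late of OA minus serum. The shifted clones were drawn at random from all clones, each with its own spread. These rates are therefore not those of the immunoglobulin clones. One microarray of P7L3 whose labels name both 3 and 1.5 hours was taken as 3 hours, and 1 OA microarray of an unresolved mouse was left out. The deposited quality mark was not used.

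The members, lists and tests were chosen with earlier results of these data known. Named are all immunoglobulin chains and the 5 other clones most like KACMOUSE. From each list the rule took the first 4 genes measured and up to 3 clones per direction with the largest OA against serum difference. Only part of these are named here. Further B cell clones, shown as called early against intermediate, and S100a8 and Sftpd were picked from the lists after their values were seen. Current symbols come from RefSeq (GRCm38.p6 table). Alternatives were other scalings and signals, a floor of 50, bright clones alone, microarrays with the mouse as a random block, the L number as a block, serum subtraction, SAM, and leaving out each mouse. Leaving out the low microarray of P15L2, deviations within time and L number, and the correlation across microarrays were chosen after seeing the data. Sequences of the spotted clones were not used here, and 1 listed gene is not reported here.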

Additional observations from a re-analysis of the deposited data

Results flagged for a closer look

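Of 32 groups of 4 to 7 mice examined for a value far from the others, 1 stood out, where chance gives about 1 in 20. KACMOUSE at 3 hours read 11.43 in mouse P16L2, and the next of the 7 mice read 10.45, a gap of 0.570 of the whole range. The median spot intensity of this mouse was 7.31 on the log2 scale, and it was also the highest of its time point in 4 further immunoglobulin clones.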

How the results depend on the processing

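Of 1270 clone values under the alternatives 1202 kept direction and call, 38 reversed, 13 gained a call, 16 lost one and 1 moved, and of 204 counts 159 stayed within 1.5 times. Over the 6 time points, 1 of 7 clones was called, against 0 with the fitted signal, 0 of the 2 bright clones tested alone, 0 with the L number as a block and 4 with serum means subtracted (55.9% of all clones), and 0 to 2 with single mice left out. Calls over all clones were 153 in the main fit, 62 with the fitted signal, 99 among bright clones and 71 with the block. Over the 3 stages 1 was called, against 2 with microarrays as replicates in a random block, 2 with the unresolved microarray added, 2 with SAM (5.50% of all clones) and 4 with serum means subtracted (43.2%), and 1 to 2 with single mice left out (2 without P4L2, P4L3, P16L2 or P12L3, where Igh-6 (1275) joined). Stage calls over all clones were 470 in the main fit, 773 with the random block and 632 with the unresolved microarray. Without P4L2, P4L3, P16L2 and P12L3 they numbered 548, 846, 414 and 537. Against serum, 2 clones were higher and 1 lower. With microarrays centred on their median these were 1 and 2. Bright clones alone gave 0 higher, and the fitted signal and the random block each gave 0 lower. Leaving out single mice gave 1 to 2 higher and 0 to 1 lower. The lower call was lost without the second serum mouse of 1, 3 or 18 hours. The higher call of Igh-6 (6179) was lost without the second serum mouse of 1 or 18 hours, the first of 3 hours, P10L1 or P7L1. Early minus late of OA minus serum stayed at 0 called. Correlated clones numbered 5, or 3 (without Igh-6 (1275) and Igj (7269)) when KACMOUSE was read from the first microarray and the other clone from the second. The reverse reading lost Igh-6 (1275) alone, and deviations within time and L number lost Igj (7269) alone. Without P12L3 and P4L3, Igj (7269) was lost and Igh-6 (9298) joined.

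Late minus early turned with the L number as a block for Igh-6 (400) (0.17), Igh-6 (6179) (0.08), Igh-6 (9298) (0.45) and Igj (7269) (0.17), and with median centring for Igh-6 (6179) (0.02). With serum means subtracted, early minus intermediate turned for Igh-6 (400) (-0.15), Igh-6 (6179) (-0.36) and Igj (6129) (-0.68), and late minus early for Igh-6 (400) (0.12), Igh-6 (1275) (0.22), Igh-6 (6179) (0.66), Igh-6 (9298) (0.10), Igj (6129) (0.23) and Igj (7269) (0.21). OA minus serum of KACMOUSE was -0.37 with median centring and -0.10 to 0.17 with single mice left out. Early minus late of OA minus serum turned for Igj (7269) with median centring (0.13), the fitted signal (0.31) and the floor of 50 (0.46), and with the fitted signal for Igh-6 (400) (0.06) and Igh-6 (9298) (0.00). With single mice left out it spanned -0.28 to 0.09 for Igh-6 (400), -0.38 to 0.25 for Igh-6 (9298), -0.36 to 0.01 for Igj (6129) and -0.09 to 0.26 for Igl-V1, and late minus early of Igh-6 (6179) spanned -0.08 to 0.06. The cause was not tested in any of these.

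No paired analysis was possible because the mouse names are not shared between groups. No fit could be made without the only serum mouse of 1.5 or 24 hours. Igl-V1 and Igj (7269) never passed background, which limits their values, and at 4 hours there is no serum mouse.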

Other observations

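One OA microarray of 1.5 hours could not be tied to a mouse from its labels. It read 11.65 for KACMOUSE, 7.70 for Igl-V1, 9.61 for Igh-6 (400), 11.28 for Igh-6 (1275), 9.22 for Igh-6 (6179), 8.42 for Igh-6 (9298) and 8.65 for Igj (6129) in the authors' table, each within the range of the 6 mice at that time. Igj (7269) read 6.36, below their range of 6.61 to 7.66.

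In the authors' serum columns, 1 per time point and with microarrays not named, KACMOUSE read 10.05, 11.71, 9.14, 11.18 and 10.48 (1, 1.5, 3, 18 and 24 hours). Igh-6 (1275) read 10.94, 12.29, 10.22, 11.11 and 10.75, and Igj (6129) 8.32, 9.56, 8.30, 7.94 and 8.34. The column of 1.5 hours was the highest in these 3 clones and in Igh-6 (400) (10.24) and Igh-6 (6179) (9.54). It was the lowest of the 5 in Igl-V1 (6.69, the others 7.36 to 8.17), and it was not the highest in Igh-6 (9298) (6.92, with 7.86 at 24 hours) and Igj (7269) (6.96, with 7.54 at 3 hours).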
